A study of Sus scrofa with 6 samples.

Results

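The liver makes glucose from lactate, amino acids and glycerol, and it stores and releases glucose as glycogen. The genes described here are 9 that encode central enzymes of these routes, a regulator and the hepatic glucose transporter: PCK1, PCK2, G6PC, FBP1, PC, GYS2, PYGL, PPARGC1A and SLC2A2. They were chosen by gene symbol in the array annotation, and where a symbol had several transcript clusters (groups of probes summarised to 1 value) the one that was brightest on average was taken. Of the 9 genes, 7 had a cluster under their symbol, with 12 clusters among 25385 tested in all. G6PC and PPARGC1A had none under their symbols and were not analysed here.

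Liver biopsies came from adult male German landrace pigs on Affymetrix Porcine Gene 1.0 ST arrays, with 3 arrays from animals that received Ringer solution as vehicle (control) and 3 from animals that received porcine bone marrow mesenchymal stromal cells (MSC). Both groups had undergone extended partial hepatectomy, had been starved before it and were kept under intensive care for the day after it, and no unoperated liver was among these arrays. The infused cells had been differentiated toward hepatocyte-like cells in culture and were given through a central vein, so that the MSC group stands for this cell preparation and not for undifferentiated MSC. The methods give 1 array to each of 3 animals per group, while the labels do not name the animals.

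Phosphoenolpyruvate carboxykinase, pyruvate carboxylase and fructose-1,6-bisphosphatase catalyse the steps that bypass the irreversible reactions of glycolysis, and glucose-6-phosphatase releases the free sugar. PCK1, the cytosolic carboxykinase, is a classical transcriptional target of glucagon, glucocorticoids and fasting and is repressed by insulin, whereas the mitochondrial form PCK2 responds much less to fasting. Glycogen synthase 2 and the liver glycogen phosphorylase are controlled largely by phosphorylation of the proteins, which arrays of RNA do not measure.

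The values are RMA signals on the log2 scale, so that a difference of 1 is a change of 2-fold, and levels of different genes were not set against each other. The medians of the arrays lay between 6.51 and 6.59. A gene was called changed where limma gave it an unadjusted p below 0.05 and the groups differed by 0.5 or more, the threshold used in the study, and the p printed is the Benjamini-Hochberg adjusted one over all tested clusters. At this threshold 692 clusters were called (2.73% of those tested), 314 higher (1.24%) and 378 lower (1.49%) in MSC, while no cluster passed after adjustment, 1662 (6.55%) had an unadjusted p under 0.05 and 32 passed the methods' t-test. The median of 23 probe sets that match no pig sequence was at most 4.08 on any array. The background level, 8.20, is the 95th percentile of these probe sets, and 21.9% of the tested clusters had a mean above it. The hepatocyte markers were all above it (6 of 6 found, ALB at 13.46 to 13.63).

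Whether the symbol SLC2A2 led to the glucose transporter is doubtful. The cluster taken for it lies on the mitochondrial chromosome in the annotation, whereas RefSeq places the gene on chromosome 13, and 1 of its 25 probes was assigned to the SLC2A2 transcript. Its values were 13.85, 13.98 and 13.96 in control 1, 2 and 3 and 13.82, 13.89 and 13.85 in MSC 1, 2 and 3, a narrow band in which the groups overlap (difference -0.08, limma, adjusted p = 0.872). The other cluster with this symbol lies on the mitochondrial chromosome as well, although 20 of its 23 probes were assigned directly to a GenBank clone that the annotation names SLC2A2. It read 11.13, 8.87 and 12.19 in the controls, the lowest and the highest of the 6 livers both being controls, and 11.47, 11.65 and 11.14 in MSC (difference 0.69, limma, adjusted p = 0.834). The placement and the name of these clusters thus conflict, and neither is read here as SLC2A2. The clusters of the other 6 genes lie on the chromosome that RefSeq gives for them: PCK1 on 17, PCK2 on 7, FBP1 on 10, PC on 2, GYS2 on 5 and PYGL on 1.

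None of the 7 clusters found passed the threshold (0 of 7, against 2.73% of all tested clusters, 1.24% higher and 1.49% lower), and none had an unadjusted limma p under 0.05 (6.55% of all) or passed the methods' t-test. In all 7 the control and MSC values overlap, whereas in 5.64% of the tested clusters every MSC array lay above every control array and in 5.96% below. The median difference over the 7 was 0.04, beside -0.01 over all tested clusters, and it was 0.04 as well over the 6 without the mitochondrial cluster. The 6 nuclear genes differed in how far the control arrays lay apart, from 0.28 for PYGL to 2.73 for PCK1.

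**Figure D1:**
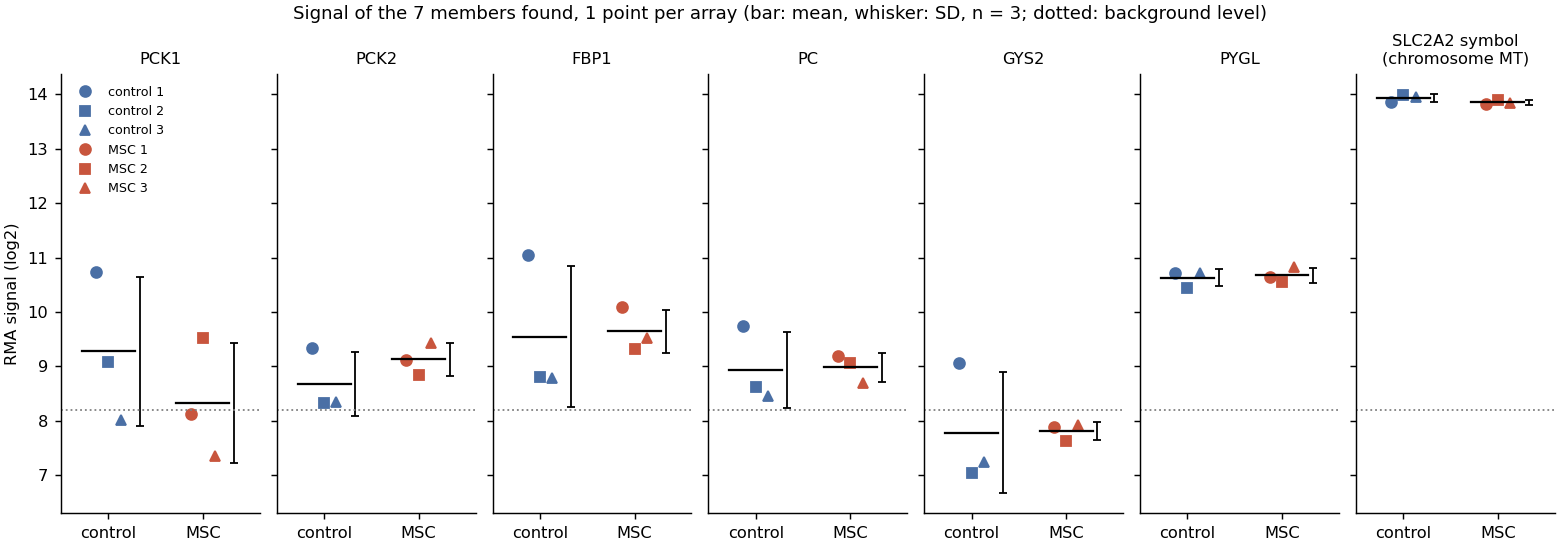
RMA signal (log2, vertical axis) of the 7 clusters found, 1 point per array, for the control and MSC groups (bar, mean; whisker, SD; n = 3; dotted line, background level at 8.20). Control 1 (blue circle) lies above the other controls for PCK1, PCK2, FBP1, PC and GYS2, while the PYGL points lie between 10.45 and 10.82.

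PCK1, which turns oxaloacetate into phosphoenolpyruvate in the cytosol, had the widest spread of the members. Its signal was 10.74, 9.09 and 8.01 in control 1, 2 and 3, and 8.12, 9.52 and 7.35 in MSC 1, 2 and 3. The highest value was a control and the lowest an MSC liver, but MSC 2 lay above control 2 and control 3. The means were 9.28 ± 1.37 (SD, n = 3) in control and 8.33 ± 1.10 (SD, n = 3) in MSC, a difference of -0.95 with a 95% interval from -2.65 to 0.75 (limma, adjusted p = 0.796). This interval runs from a level of 0.159 to 1.69 times that of the controls, so that neither a large deficit nor a moderate excess was distinguishable with these arrays.

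PCK2, the mitochondrial carboxykinase, had values of 9.35, 8.33 and 8.35 in control 1, 2 and 3 and of 9.12, 8.83 and 9.44 in MSC 1, 2 and 3. The 3 MSC livers lay above control 2 and control 3, and control 1 lay among them. The difference was 0.46 (95% interval -0.22 to 1.13, limma, adjusted p = 0.773), the largest positive one among the members. PCK1 and PCK2 did not follow the same order of livers: MSC 3 was the lowest of the 6 for PCK1 and the highest for PCK2.

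Pyruvate carboxylase (PC), the mitochondrial enzyme that feeds carbon into the pathway as oxaloacetate, read 9.74, 8.62 and 8.46 in the controls and 9.20, 9.06 and 8.69 in the MSC livers. Control 1 was above all MSC livers and the other controls were below all of them. The group means were 8.94 ± 0.70 and 8.98 ± 0.26 (SD, n = 3 each), a difference of 0.04 (95% interval -0.71 to 0.80, limma, adjusted p = 0.982).

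FBP1, the fructose-1,6-bisphosphatase of liver and kidney, showed the same arrangement with larger distances. Its values were 11.04, 8.81 and 8.78 in control 1, 2 and 3 and 10.08, 9.32 and 9.52 in MSC 1, 2 and 3. The 3 MSC values thus fell into the gap between control 1 and the remaining controls. The difference of the means, 0.10, came with a 95% interval from -1.23 to 1.42 (limma, adjusted p = 0.975).

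GYS2, the liver isoform of glycogen synthase, had both group means below the background level. It read 9.06, 7.04 and 7.25 in control 1, 2 and 3 and 7.88, 7.63 and 7.93 in MSC 1, 2 and 3. Only control 1 exceeded 8.20, and the MSC values again lay between control 1 and the other controls. The SD was 1.11 in control and 0.16 in MSC, and the means differed by 0.03 (95% interval -1.07 to 1.13, limma, adjusted p = 0.993).

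PYGL, the liver glycogen phosphorylase that frees glucose units from glycogen, was the steadiest of the 6 nuclear genes. Its signal was 10.72, 10.45 and 10.72 in the controls and 10.65, 10.56 and 10.82 in the MSC livers. All 6 livers stayed within a narrow band, with control 2 lowest and MSC 3 highest. The difference was 0.05 with a 95% interval from -0.27 to 0.36 (limma, adjusted p = 0.942), the narrowest interval among these 6, which corresponds to 0.831 to 1.28 times the control level.

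For PCK1, FBP1 and PC a second, dimmer cluster on the same chromosome gave a separate reading of the same livers. In PCK1 it read 9.01, 7.19 and 6.48 in the controls and 6.95, 7.85 and 6.26 in the MSC livers, the order of the livers being the same as in the brighter cluster, but both group means, 7.56 and 7.02, were below the background level. In FBP1 the second cluster read 9.65, 7.99 and 8.03 against 8.90, 8.31 and 8.72. Pearson's r between both clusters over the 6 arrays was 0.978 for PCK1, 0.989 for FBP1 and 0.968 for PC. These are readings of the same RNA, so that they bear on the probes and not on the animals, and the differences between the groups were -0.54 for PCK1, 0.09 for FBP1 and -0.04 for PC, whose second cluster had an MSC mean of 8.19, just below the background level. The second PYGL cluster, with 1 of its 23 probes assigned directly to the transcript, lay between 4.18 and 5.28, far below the background level, and was not read.

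**Figure D2:**
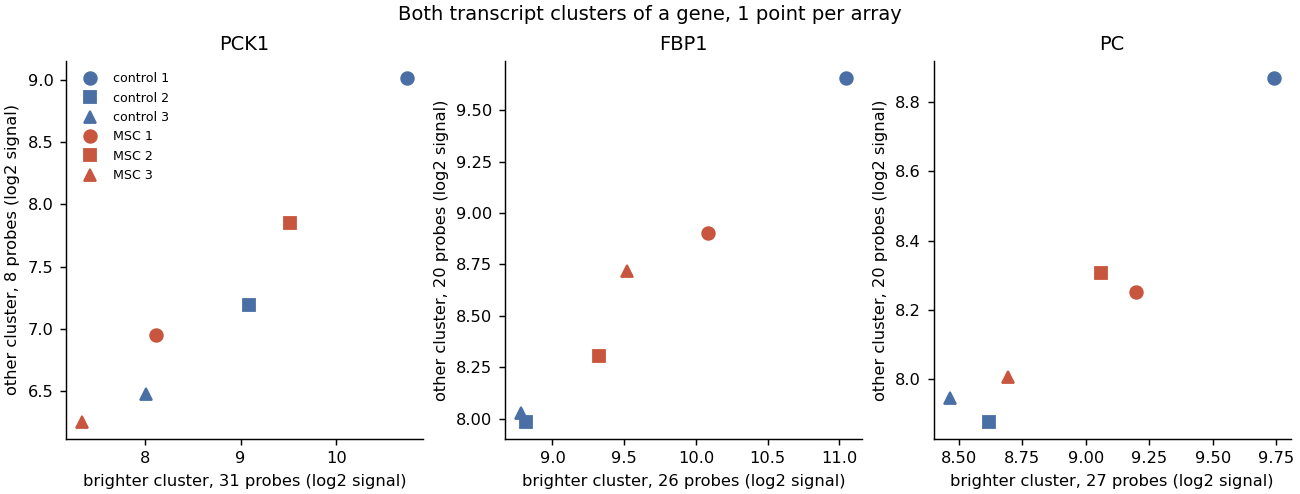
Signal (log2) of the brighter cluster (horizontal axis) against that of the other cluster (vertical axis) for PCK1, FBP1 and PC, 1 point per array (blue, control; red, MSC; circle, square and triangle, replicates 1, 2 and 3). In each gene the circle of control 1 lies at the upper right, apart from control 2 and control 3, in both clusters.

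In PCK2, FBP1, PC and GYS2 a single liver, control 1, therefore set most of the spread among the controls. In PCK1, where control 2 and control 3 also lay apart (9.09 and 8.01), control 1 was the highest. It exceeded the mean of control 2 and control 3 by 2.25 for FBP1 (4.74-fold), by 2.19 for PCK1 (4.57-fold), by 1.91 for GYS2 (3.77-fold), by 1.20 for PC (2.30-fold) and by 1.01 for PCK2 (2.01-fold). The distance was 0.14 for PYGL. Over all tested clusters the same distance had a median of 0.02 and a median size of 0.207, and 99.96% of the clusters had a lower value than FBP1, 99.94% than PCK1, 99.9% than GYS2, 99.2% than PC and 98.6% than PCK2. Control 1 was the highest of all 6 arrays in 4 of the 7 members (PCK1, FBP1, PC and GYS2), compared with 20.2% of all tested clusters.

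**Figure D3:**
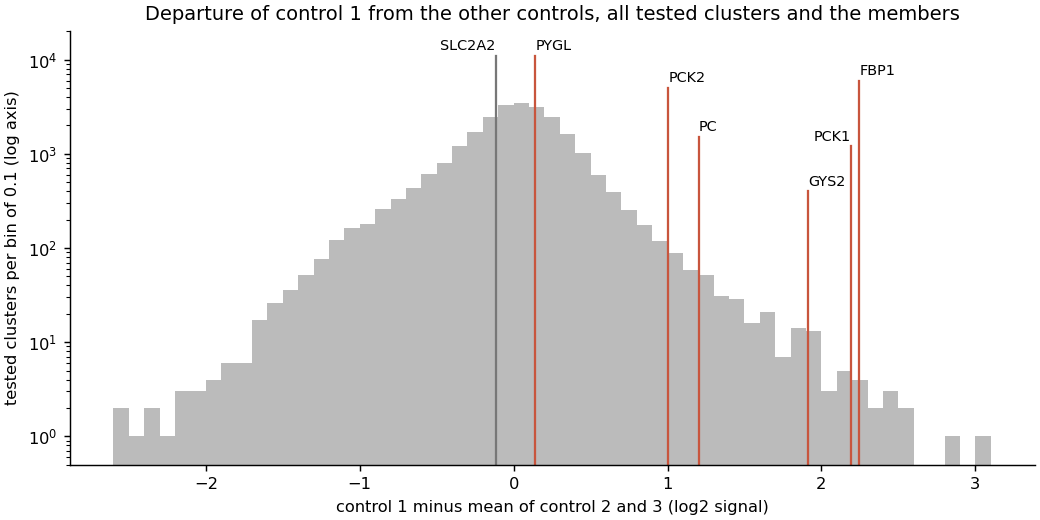
Number of tested clusters per bin of 0.1 (vertical log axis) by the distance of control 1 from the mean of control 2 and control 3 (log2, horizontal axis). Vertical lines mark the members: PYGL at 0.14 and the mitochondrial cluster with the symbol SLC2A2 at -0.12 lie in the bulk, whereas PCK2, PC, GYS2, PCK1 and FBP1 lie between 1.01 and 2.25 in the sparse right tail.

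The arrangement in which control 1 lay above all MSC livers while control 2 and control 3 lay below all of them held for 3 of the 7 members, FBP1, PC and GYS2, and for 3.61% of all tested clusters. Among the other genes of the pathway described further on, 14 of 90 had this same arrangement, control 1 included (15.6%, against the 3.61% of all tested clusters). These shares are of unlike sets, since the 90 are the brightest clusters of named genes. Of all tested clusters only 21.9% had a mean above the background level, and no share at a matched signal was taken. The 14 include SLC37A4, which carries glucose 6-phosphate into the endoplasmic reticulum, with 9.08, 7.53 and 7.48 in the controls and 8.31, 8.42 and 8.11 in MSC. GPD1, the cytosolic glycerol 3-phosphate dehydrogenase through which glycerol enters, read 9.91, 7.62 and 7.55 against 9.25, 8.11 and 8.06. UGP2, which makes the UDP-glucose used for glycogen, read 11.56, 10.43 and 10.44 against 11.00, 10.75 and 10.75. These 3 genes were picked for this arrangement after their values had been seen, and none of them passed the threshold (differences 0.25, 0.11 and 0.02). Whatever the place of control 1, the other controls lay below all MSC livers in 4 of the 7 members (also in PCK2), compared with 15.5% of all tested clusters.

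Markers of cell types moved with the position of control 1. The mean of the 6 hepatocyte markers was 13.01, 12.57 and 12.63 in control 1, 2 and 3 and 12.97, 12.81 and 12.78 in MSC 1, 2 and 3, and their summed linear signal was 52346, 40517 and 41879 against 50929, 46180 and 45633. Control 1 was above both other controls in all 6, by a median of 0.39. In contrast, 5 endothelial markers averaged 8.11, 9.10 and 8.97 in the controls and 8.26, 8.55 and 8.27 in MSC, and 8 stellate cell and fibroblast markers averaged 9.42, 10.44 and 10.31 against 9.43, 9.79 and 9.54. The 5 bile duct markers averaged 8.29, 9.28 and 9.11 against 8.27, 8.47 and 7.94. Control 1 thus lay nearer to the MSC livers than to the other controls in these 3 lists. A mean above the background level was found for 3 of the 5 endothelial, 7 of the 8 stellate cell and fibroblast and only 1 of the 5 bile duct markers.

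Against the threshold, no hepatocyte marker of 6 changed, while 2 of 5 endothelial markers (VWF and FLT1), 1 of 8 stellate cell and fibroblast markers (RGS5) and 2 of 5 bile duct markers (EPCAM and CFTR) fell and none rose, where 1.49% of all tested clusters fell. Without control 1 the counts that fell were 4 of 5, 6 of 8 and 5 of 5, where 4.77% of all tested clusters fell. The 4 macrophage markers found averaged 8.58, 8.96 and 8.97 in the controls and 9.01, 8.95 and 8.94 in MSC, while the mean of the 4 T cell markers, none of them above the background level, was lowest in control 1 at 6.26, and no marker of either list passed the threshold. Without control 1, 1 of the 4 macrophage markers (CD14) passed, higher in MSC by 0.54, where 3.95% of all tested clusters rose, and no T cell marker did. The part of cell type shares in the values of the glucose genes was not tested. In tissue samples such as these, fewer cells of a type and less RNA per cell cannot be told apart.

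Without control 1 the comparison rests on 2 control livers and 3 MSC livers, and it gave a different count. Then 3 of the 7 clusters passed the threshold, all higher in MSC, where 8.73% of all tested clusters passed, 3.95% with higher and 4.77% with lower values. Each array was left out in turn, and control 1 is set out here because of the values of these same members. In the 3 that passed, control 2 and control 3 already lay below all MSC livers, so that these calls are no separate support for a difference. PCK2 was higher by 0.79 (95% interval 0.35 to 1.23, limma, adjusted p = 0.133), or 1.73-fold. FBP1 was higher by 0.84 (95% interval 0.32 to 1.37, limma, adjusted p = 0.152), or 1.79-fold. GYS2 was higher by 0.67 (95% interval 0.32 to 1.02, limma, adjusted p = 0.124), or 1.59-fold, at a signal below the background level. In the same fit the median difference was 0.32 for the hepatocyte markers, none of which passed, -0.67 for the endothelial, -0.62 for the stellate cell and fibroblast and -1.03 for the bile duct markers, and their part in the higher values of PCK2, FBP1 and GYS2 was not tested.

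PC differed by 0.44 without control 1 (limma, adjusted p = 0.282), under the minimum difference of the threshold. PCK1 differed by -0.22 (95% interval -1.62 to 1.18) and PYGL by 0.09 (95% interval -0.26 to 0.44), neither past the threshold. The median over the 7 clusters moved from 0.04 to 0.44 without control 1, whereas it was -0.12 without control 2, -0.20 without control 3, -0.06 without MSC 1, 0.11 without MSC 2 and -0.02 without MSC 3. Over the 6 genes without the mitochondrial cluster, the median moved from 0.04 to 0.56 without control 1. Leaving out another single array brought no member past the threshold, while 1.75% of all tested clusters passed without control 2, 2.58% without control 3, 2.25% without MSC 1, 4.88% without MSC 2 and 1.93% without MSC 3. Without control 2 or without control 3 the differences of FBP1, PC and GYS2 had the opposite sign, at -0.12 to -0.34.

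**Figure D4:**
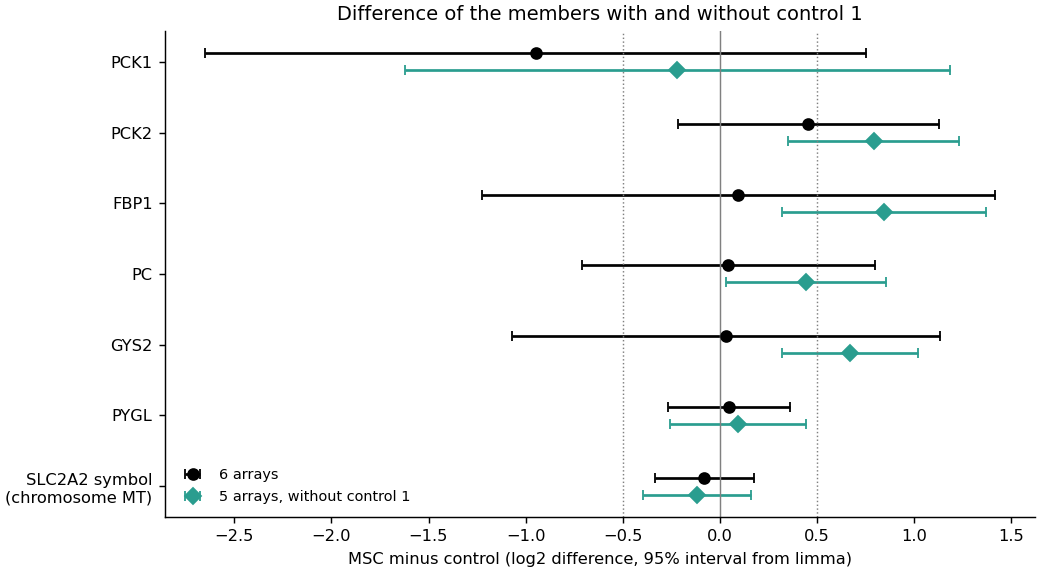
Difference MSC minus control (log2, horizontal axis) with its 95% interval from limma for the 7 clusters found, with all 6 arrays (black circles) and without control 1 (green diamonds). Dotted lines mark the minimum difference of 0.5. All intervals of the 6 arrays include 0, and without control 1 those of PCK2, FBP1, PC and GYS2 lie above 0.

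The members were related to each other to different degrees over the 6 arrays. Pearson's r was 0.965 between FBP1 and GYS2, 0.944 between FBP1 and PC and 0.888 between PC and GYS2, and control 1 was the highest array for each of these 3 genes. It was 0.814 between PCK2 and GYS2, 0.727 between PCK1 and PC, and 0.051 between PCK1 and PCK2. These values describe 6 livers that share their arrays and normalization.

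The 5 named genes whose pattern was most like that of PCK1 over the 6 arrays were GPANK1 (r = 0.994), EPHA6 (0.991), MFSD2A (0.986), MIR133B (0.981) and ZNF213 (0.980). They were picked for the highest r among all other named genes. Such a pick over only 6 arrays gives a high r by itself, and no link to PCK1 was tested. The widest range of these 5 was that of MFSD2A, a lipid transporter of the plasma membrane that is induced by fasting in mouse liver, with 9.49, 7.91 and 7.42 in the controls and 7.55, 8.30 and 6.88 in MSC. GPANK1 ran from 6.62 to 6.92 and EPHA6 from 4.59 to 5.05. All 5 had a mean below the background level, MFSD2A (7.92) included.

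PDK4 and IGFBP1, both known to be repressed by insulin and raised by fasting, were looked at beside PCK1 after their values had been seen. PDK4, the kinase that shuts pyruvate dehydrogenase and spares pyruvate for glucose synthesis, read 10.90, 9.17 and 7.57 in the controls and 8.34, 8.40 and 7.63 in MSC. Control 1 was again highest and control 3 was close to MSC 3, and the difference was -1.09 (limma, adjusted p = 0.776). It was -0.25 without control 1, and -1.91 without control 3, where it passed the threshold (limma, adjusted p = 0.804). IGFBP1, a secreted binding protein of insulin-like growth factors, read 10.72, 9.90 and 9.36 against 8.16, 10.08 and 9.19, with overlapping groups and a difference of -0.85 (limma, adjusted p = 0.767). It was -0.36 without MSC 1, -0.49 without control 1 and -1.32 without MSC 2, where it passed (limma, adjusted p = 0.554). Among the lists described below, 30 differences were positive and 8 negative in the regulators, and 8 positive and 6 negative in glucose phosphorylation and glycolysis. They were 13 positive and 5 negative in the gluconeogenic steps, 10 and 6 in glycogen metabolism and 2 and 2 in the transporters. Over all tested clusters, 13530 of 25385 differences were negative. Any part of fasting or insulin in the values of PCK1, MFSD2A, PDK4 and IGFBP1 was not tested.

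Of 131 other genes of glucose metabolism in 5 lists, 90 had a cluster, and 5 of the 90 passed the threshold (beside 2.73% of all clusters), with 4 that rose and 1 that fell. After adjustment none passed, none passed the methods' t-test and 11 had an unadjusted limma p under 0.05. Without control 1 the count was 23 of the 90, beside 8.73% of all clusters.

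**Figure D5:**
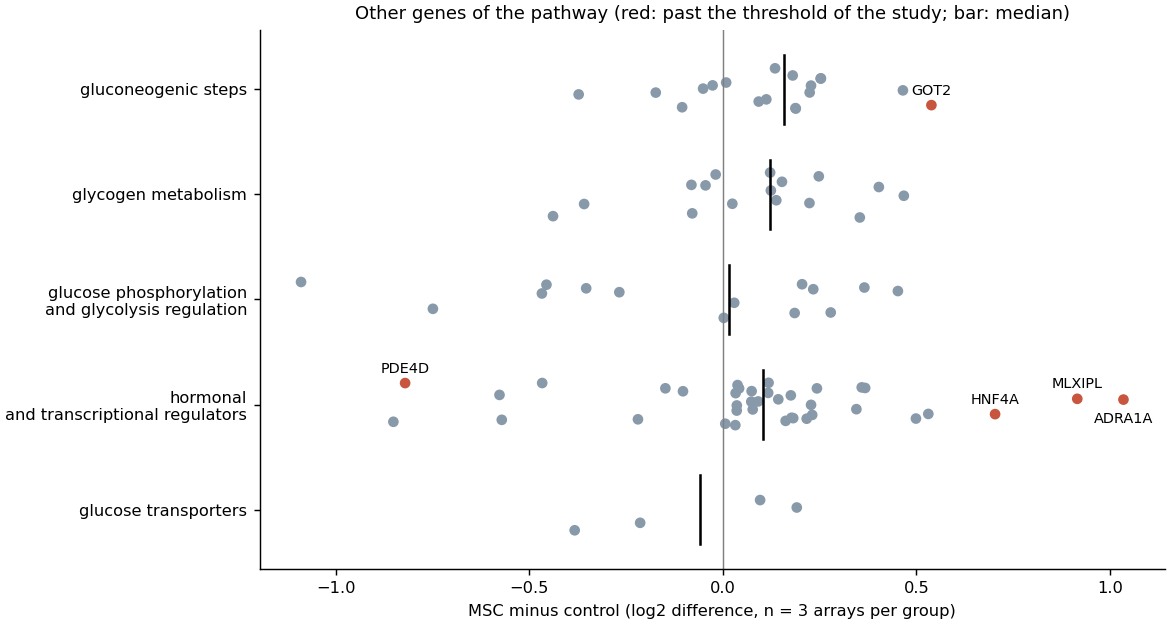
Difference MSC minus control (log2, horizontal axis) of the 90 other genes of glucose metabolism found, 1 point per gene in 5 lists, with the median of each list as a black bar and genes past the threshold in red. Most points lie between -0.5 and 0.5, and the 4 red points on the right are GOT2, HNF4A, MLXIPL and ADRA1A.

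Among the gluconeogenic steps, 1 of 18 genes found rose and none fell, with a median of 0.16. The gene was GOT2, the mitochondrial aspartate aminotransferase of the malate-aspartate shuttle, which read 11.24, 10.70 and 10.97 in the controls and 11.55, 11.27 and 11.72 in MSC. The groups did not overlap, and the difference was 0.54 (limma, adjusted p = 0.736), although it no longer passed without control 2, without MSC 1 or without MSC 3. Its cytosolic partner GOT1 read 9.23, 8.34 and 8.65 against 9.25, 9.15 and 9.22, a difference of 0.47 that did not pass. G6PC3, the ubiquitous relative of the hepatic glucose-6-phosphatase, differed by 0.25 below the background level. The cluster with the symbol LDHB differed by -0.37, but it lay at 4.92 and 4.55 on average and on another chromosome than the gene in RefSeq. Without control 1, 4 of the 18 passed (GOT1, GOT2, SLC37A4 and GPD1), all higher in MSC, beside 3.95% of all tested clusters.

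Among the genes of glycogen metabolism, none of 16 found passed, and the median was 0.12. At an unadjusted limma p under 0.05 but below the minimum difference were PHKA2, a regulatory subunit of the liver phosphorylase kinase (0.47), and PPP1R3D, a glycogen-targeting subunit of protein phosphatase 1 (-0.44), both below the background level. STBD1, which tethers glycogen to membranes, differed by 0.40, and PYGM, the muscle phosphorylase, by -0.36. Without control 1, 2 of the 16 passed (PHKA2 and STBD1), both higher in MSC, beside 3.95% of all tested clusters.

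Among the genes of glucose phosphorylation and glycolysis, none of 14 found passed, with a median of 0.02, and the signs differed between isoforms. PKLR, the pyruvate kinase of liver and red cells, read 6.13, 5.93 and 5.78 in the controls and 6.61, 6.31 and 6.27 in MSC, a difference of 0.45 with separate groups that stayed below the minimum difference and the background level. HK2, the insulin-responsive hexokinase of muscle and fat, read 6.09, 7.82 and 6.93 against 6.43, 6.08 and 6.08, a difference of -0.75 (limma, adjusted p = 0.763) in which control 1 lay with the MSC livers. HK1, the hexokinase of most tissues other than hepatocytes, differed by -0.47 and PDK3 by 0.37. Without control 1 this list gave 2 genes higher (PKLR and PFKFB1) and 4 lower (HK1, HK2, HK3 and PKM), of which PFKFB1, HK3 and PKM are named after their values had been seen. Of all tested clusters, 3.95% passed with higher and 4.77% with lower values in that fit.

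Among the hormonal and transcriptional regulators, 3 of 38 genes found rose and 1 fell, with a median of 0.10, where 1.24% of all tested clusters rose and 1.49% fell. Without control 1, 10 of the 38 passed, 8 higher and 2 lower in MSC, where 3.95% of all tested clusters passed with higher and 4.77% with lower values. MLXIPL, the glucose-sensing factor also called ChREBP, read 7.56, 7.17 and 7.46 in the controls and 8.37, 7.76 and 8.80 in MSC, with every MSC liver above every control (difference 0.92, limma, adjusted p = 0.736). HNF4A, a nuclear receptor that maintains hepatocyte gene expression, read 9.71, 8.75 and 9.26 against 9.91, 9.77 and 10.14, again without overlap (difference 0.70, limma, adjusted p = 0.736). It no longer passed without control 2 or without MSC 3.

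ADRA1A, the alpha-1A adrenergic receptor through which catecholamines act on hepatocytes, read 8.24, 6.90 and 7.26 against 8.39, 7.96 and 9.15, with control 1 above MSC 2 (difference 1.03, limma, adjusted p = 0.737). It lost the call in 4 of the 6 fits with an array left out, namely without control 2, control 3, MSC 1 or MSC 3. PDE4D, a phosphodiesterase that degrades cyclic AMP, fell from 8.25, 8.09 and 7.95 to 7.04, 7.70 and 7.09 (difference -0.82, limma, adjusted p = 0.736). The calls of PDE4D and MLXIPL held with any single array left out, and both genes lay near or below the background level.

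Of 10 other glucose transporters, 4 had a cluster and none passed, all of them below the background level. SLC5A1, the sodium-coupled transporter of intestine and kidney, differed by -0.38, SLC2A4, the insulin-responsive transporter of muscle and fat, by -0.21, SLC2A8 by 0.19 and SLC2A10 by 0.10. Without control 1, SLC5A1 passed with a lower value in MSC (-0.52), where 4.77% of all tested clusters passed with lower values.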

How the data were processed

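RNA from 6 pig liver biopsies (3 control, 3 MSC) was hybridised to 1 array each. The authors summarised probes by RMA, and the deposited values are log2 signals, which were used as given. The labels name Affymetrix Expression Console 1.4, and the study's own gene analysis used RMA in R with another probe annotation. A deposited workbook gave the cluster annotation. Its 6 signal columns were left out, because their names fit no sample label, and its other deposited columns, such as the number of probes of a cluster, are of another kind than signals. Tested were 25385 clusters (19124 main, 6261 rescue), of which 11268 carried 1 symbol, for 10245 genes. Chromosomes are printed without positions, whose build is unclear.

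MSC was compared with control by limma 3.58.1 in R 4.3.3 (lmFit and eBayes, 4 residual and 3.80 prior degrees of freedom), without a replicate block, and p-values were adjusted over all these clusters (Benjamini-Hochberg). Precision is limited by the number of arrays. As an alternative, the methods' t-test called clusters at p under 0.05 and over 2-fold. The fit was tested on simulated data. Beside the members, named genes are those of each list past the threshold or otherwise up to 4 with the smallest p, and the 5 most like PCK1. Members and lists were chosen with earlier results of these data known. Alternatives covered normalization, low signal, priors, weights, thresholds, clusters and each array left out. Promoter sequences were not used here.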

Additional observations from a re-analysis of the deposited data

How the results depend on the processing

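The count of members past the threshold was 0 in all settings except with array weights, where it was 1 (PCK2, control 1 having a weight of 0.447), and with single arrays left out (0 to 3). The call for 3 members without control 1 rests on 2 control livers, and control 1 was singled out from the members' own values. Over all tested clusters the count of 692 became 188 with dim clusters left out and 266 with 1 cluster per gene (fewer were tested), 1565 with array weights, 32 by the methods' t-test, 0 after Benjamini-Hochberg adjustment, 1662 with no minimum difference and 445 to 2215 with single arrays left out. The lowest was without control 2, the highest without control 1, and without MSC 2 it was 1240. The count of 5 other glucose genes became 2 with dim clusters left out (fewer were tested), 17 with array weights, 0 by the methods' t-test, 0 after adjustment, 11 with no minimum difference and 4 to 23 with single arrays left out (23 without control 1, 11 without MSC 2). Where no smaller number of clusters tested is named, the cause was not tested.

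Differences close to 0 changed sign. PC was -0.0094, PYGL -0.0052 and UGP2 -0.018 after repeated quantile normalization, and with the mean of a gene's clusters PC was -0.00035, PYGL -0.22 and the SLC2A2 symbol 0.31. The PYGL mean takes in its second cluster (difference -0.49), which lay far below the background level and was not read above. With single arrays left out the differences ran from -0.29 to 0.84 for FBP1, -0.20 to 0.44 for PC, -0.34 to 0.67 for GYS2, -0.045 to 0.11 for PYGL, -0.020 to 0.38 for SLC2A8, -0.022 to 0.78 for SLC37A4, -0.29 to 0.89 for GPD1 and -0.16 to 0.40 for UGP2. PCK1 (-1.58 to -0.22) and PCK2 (0.28 to 0.79) kept their sign in the clusters taken. The second, dimmer PCK1 cluster did not, with 0.19 without control 1. Leaving out the SLC2A2 symbol, chosen after seeing the data, gave 0 members past the threshold and a median of 0.04 with all 6 arrays. Without control 1 it gave 3 members and a median of 0.56.

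Replicate numbers are shared by the groups, although the animals had been randomized to one group or the other. Deviations of arrays with the same number correlated at -0.016, 0.252 and -0.085, and those with unlike numbers at -0.183 to 0.203. With 3 arrays per group these values cannot decide whether arrays with the same number shared a batch. With the replicate block 0 members, 834 of all clusters and 5 other glucose genes passed. The mean signal of GYS2 and of most glycolytic and transporter genes was below the background level, where a value can be little more than a bound. That level is a high percentile of 23 probe sets and was not tested as a detection limit for single genes. GYS2 itself ran from 7.04 to 9.06, with control 1 the only array above the background level. Its r with FBP1 was 0.965 over the 6 arrays, control 1 being the highest for both genes. Whether GYS2 was detected in the other arrays was not tested.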
